A study of Homo sapiens with 12 samples.

Results

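Vehicle-treated THP-1 cells are described here by the level of each gene in the 3 DMSO libraries of a 12-library series. THP-1 is a human cell line from an acute monocytic leukaemia that carries a fusion of KMT2A (also called MLL) with MLLT3 (AF9). The series treated 1000000 THP-1 cells per library for 2 hours with AZ5576, THZ531, YKL5124 or the vehicle DMSO, and 4-thiouridine at 1 mM was present for the last 10 minutes, so the DMSO cells carried that label too. Libraries were made with QuantSeq, a kit that reads the 3′ ends of polyadenylated RNA, and 5% of Drosophila S2 material was added as a spike-in. The labels do not say whether the 3 libraries came from separate cultures, so the spread given here may be technical. The 3 columns used are headed UT rather than DMSO in the table, and were taken as the DMSO libraries. No inhibitor library was compared.

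All 57011 human genes left with a row in the table are described, each by 1 row, the one with the most counts over the DMSO libraries. The libraries held 12521313, 9802975 and 11824004 counts over these genes (replicates 1, 2 and 3). Levels are counts per 1000000 of these totals (CPM), given as mean ± SD with n = 3 unless the 3 libraries are listed, always in the order replicate 1, 2 and 3. A gene is called detected at a mean of at least 1 CPM. A gene with no count may still have stood at up to 3 counts over the 3 libraries, or 0.0879 CPM, a limit that covers counting error only.

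An RNA gives about 1 read at its 3′ end in this assay, so CPM is a level per RNA end and needs no division by length. Which stretch of a transcript each row covers is not given in the sources used here, so a low level or a 0 may also mean that the row misses the end of the RNA, which was not tested. The 79 cytosolic ribosomal protein genes, whose products, apart from stalk proteins such as RPLP1 and RPLP2, enter the ribosome in equal numbers, show how far levels can differ between genes of a single complex. Pseudogenes named after these genes may take some of their reads, which was not tested. Over the 79 genes, level and number of such pseudogenes had a Spearman correlation of -0.262. All 79 were detected, against 57.7% of protein-coding genes. Yet they ran from 46.1 CPM (RPL17, with 49 such pseudogenes) to 11862 CPM (RPL27A, with 4), a 257-fold range. The middle 50% of them lay between 456 and 1904 CPM. Differences between genes of this size are therefore within what these values show for a single complex. For the same reason no p-value is attached to the order of 2 genes. A sign-flip test over 3 libraries could not give an exact p below 0.25.

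THP-1 cells are used as a model of monocyte precursors. In normal bone marrow, granulocyte and monocyte precursors make the serine proteases of azurophil granules, driven by transcription factors of the C/EBP and ETS families, and later switch these genes off as receptors such as CD14 rise. Fusions of KMT2A are known to keep the HOXA genes of early progenitors active. Promoter windows of 4 genes on which the description turns are shown first, from 250 bases before the start of the transcript to 50 after it. They belong to 2 azurophil proteases (PRTN3, CTSG), the myeloid transcription factor with the highest level (CEBPA) and a monocyte receptor among those not detected (CD14). Sequences are from RefSeq, GRCh38.p14, on the strand of the gene, 5′ to 3′, with each CG dinucleotide in capitals.
PRTN3 (chr19:840749-841048, plus strand): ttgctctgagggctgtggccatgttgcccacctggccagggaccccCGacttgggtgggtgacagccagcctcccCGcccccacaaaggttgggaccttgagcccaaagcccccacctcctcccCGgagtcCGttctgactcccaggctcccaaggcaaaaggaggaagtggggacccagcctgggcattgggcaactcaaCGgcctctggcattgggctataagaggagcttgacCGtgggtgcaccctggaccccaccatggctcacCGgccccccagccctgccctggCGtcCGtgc
CTSG (chr14:24576201-24576500, minus strand): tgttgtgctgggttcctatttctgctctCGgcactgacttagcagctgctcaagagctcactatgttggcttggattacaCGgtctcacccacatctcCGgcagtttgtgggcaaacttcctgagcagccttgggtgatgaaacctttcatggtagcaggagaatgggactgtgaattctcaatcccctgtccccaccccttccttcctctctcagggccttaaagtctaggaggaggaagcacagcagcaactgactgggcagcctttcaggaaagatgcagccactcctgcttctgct
CEBPA (chr19:33302485-33302784, minus strand): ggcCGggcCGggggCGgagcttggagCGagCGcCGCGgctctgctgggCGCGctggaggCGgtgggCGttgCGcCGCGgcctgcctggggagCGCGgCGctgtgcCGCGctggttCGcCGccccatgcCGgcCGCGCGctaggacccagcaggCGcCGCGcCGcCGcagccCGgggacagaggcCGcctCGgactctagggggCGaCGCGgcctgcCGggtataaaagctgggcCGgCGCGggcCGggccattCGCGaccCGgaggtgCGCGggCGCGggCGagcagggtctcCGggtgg
CD14 (chr5:140633126-140633425, minus strand): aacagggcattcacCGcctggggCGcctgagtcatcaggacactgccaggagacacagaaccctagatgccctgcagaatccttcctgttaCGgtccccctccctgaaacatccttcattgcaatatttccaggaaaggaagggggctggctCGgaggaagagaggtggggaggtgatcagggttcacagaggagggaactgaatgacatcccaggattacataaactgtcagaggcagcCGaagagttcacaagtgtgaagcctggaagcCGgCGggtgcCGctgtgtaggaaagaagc

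The PRTN3 window held 9 CG dinucleotides, the CTSG window 3, the CEBPA window 50 and the CD14 window 8, against a median of 14 over all 35116 windows of the RefSeq table. Cytosine methylation of such dinucleotides was not measured. CEBPA, with 99.0% of windows holding as many CG dinucleotides or fewer, was the densest of the 4. The letters GAGGAA, a core bound by ETS-family factors such as SPI1, were searched on both strands. They occurred 1 time in the PRTN3 window, 2 times in the CTSG window, 0 times in the CEBPA window and 1 time in the CD14 window. Of all windows, 27.9% held them, so their presence in 3 of the 4 is a description only.

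Of 19683 protein-coding genes, 11352 (57.7%) were detected. At least 10 CPM was reached by 7700 protein-coding genes, at least 100 CPM by 1671 (8.49%) and at least 1000 CPM by 94. No count was found for 4954 (25.2%), and 6383 had 3 counts or fewer. Over genes of every class, 14811 (26.0%) were detected. The median protein-coding gene stood at 3.32 CPM, or at 20.7 CPM among those detected. Protein-coding genes took 83.4% ± 0.566 of counts, long non-coding genes 2.99% ± 0.0353 and small non-coding genes 0.894% ± 0.0422. Pseudogenes took 12.6% ± 0.568, and 1957 of 14871 were detected. Processed pseudogenes share sequence with their parent genes, so this share cannot be told apart from reads of the parents. PTMAP5, a pseudogene of PTMA, stood at 7577 ± 432 CPM, against 3669 ± 393 CPM for PTMA itself, the gene of prothymosin alpha.

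The most highly expressed genes had short transcripts. The annotated transcript had a median length of 1506.5 bases in the 94 protein-coding genes of at least 1000 CPM and 2601 bases in the 1577 genes from 100 to 1000 CPM, against 2452 bases over all protein-coding genes. The 4954 genes with no count were shorter still, at 1220.5 bases. Lengths did not enter the levels.

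**Figure D1:**
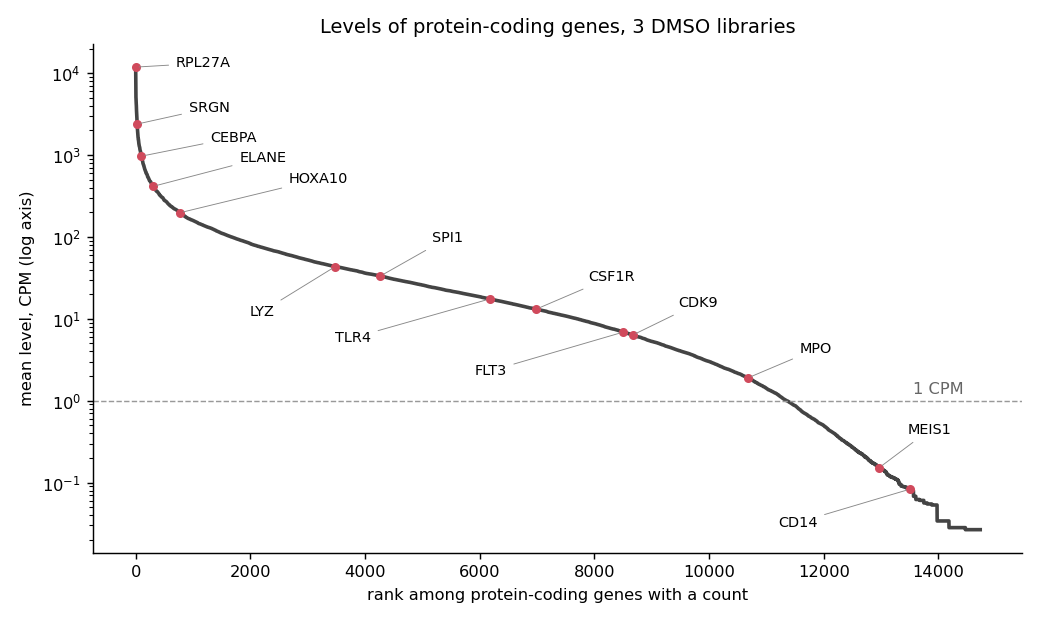
Mean level in CPM (log axis) of each protein-coding gene with a count, in order of level, with 14 named genes marked; the dashed line is 1 CPM. CEBPA and ELANE lie on the steep part of the curve at the top, whereas MEIS1 and CD14 lie below 1 CPM at its foot.

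The libraries were not equally close to each other. Replicate 2 stood apart: of the 1671 protein-coding genes of at least 100 CPM, 4.55% lay more than 0.25 on the log2 scale from the mean of the other 2 libraries, 44 above and 32 below, against 0.718% for replicate 1 and 0.239% for replicate 3. The common biological coefficient of variation from edgeR was 0.0627 with all 3 libraries and 0.0351 without replicate 2. ACTG1, the gene of cytoplasmic gamma actin, showed it at a high level, with 6349, 8166 and 6614 CPM. Tubulin alpha 1B (TUBA1B) had 3909, 5147 and 3963 CPM and the integrin subunit ITGB2 1102, 1416 and 1145 CPM, both highest in replicate 2. CLIC1, an intracellular chloride channel protein, was the reverse, with 1899, 1455 and 1947 CPM. The largest shift among these 1671 genes was 0.48 on the log2 scale, at ZNF90. Means below include replicate 2.

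**Figure D2:**
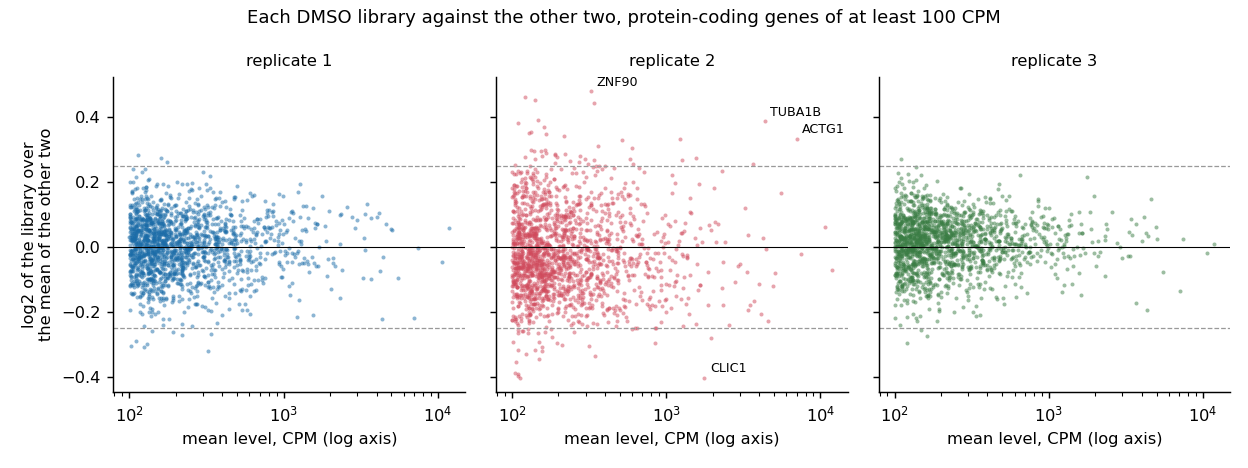
Each panel plots, for 1 library, the log2 ratio of its CPM to the mean of the other 2 (vertical axis) against the mean level (log axis) for 1671 protein-coding genes of at least 100 CPM; dashed lines are 0.25 either way. Replicate 2 has 44 points above and 32 below the lines, replicate 1 has 3 and 9, and replicate 3 has 1 and 3.

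The most abundant transcripts belonged to protein synthesis and the cytoskeleton. The 10 most abundant genes held 7.73% ± 0.164 of counts and the 100 most abundant 26.0% ± 0.104. Of the top 20 protein-coding genes, 10 encode ribosomal proteins, led by RPL27A with 12185, 11482 and 11917 CPM. Others in the top 20 were the translation elongation factor EEF1A1 with 4240.1 ± 123 CPM, the chaperone HSP90AB1 with 4129.9 ± 331 CPM and TPT1, the translationally controlled tumour protein, with 3321 ± 99.8 CPM. The translation factor list was detected in full, 24 of 24 with a median of 546 CPM, against 57.7% detected and a median of 3.32 CPM over all protein-coding genes. The nuclear non-coding RNA MALAT1 reached 11570.4 ± 496 CPM, between RPL27A and the next protein-coding gene. CAP1 (an actin-binding cyclase-associated protein) and PPT1 (a lysosomal thioesterase) ranked among the top 20 at 4948 ± 236 and 4599 ± 415 CPM, but their 3′ ends face each other and their ratio was 1.08 ± 0.0492. Their reads cannot be told apart, since the strand setting of the counting is not given in the sources used here. Of the 11352 detected protein-coding genes, 1194 (10.5%) have a 3′ end that overlaps another counted gene, and these are marked below as overlapping.

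Actin genes showed how far close relatives differed. ACTG1 had more counts than ACTB, the beta actin gene, at a within-library ratio of 2.04, 2.79 and 2.24. ACTB itself stood at 2995 ± 103 CPM. Muscle actins were near or at 0, with 0.346 ± 0.328 CPM for ACTA2 and no count for ACTC1. The actin cytoskeleton list, actins included, was detected in 23 of 25 members with a median of 350.1 CPM. Over all protein-coding genes, 57.7% were detected with a median of 3.32 CPM. Within it, cofilin (CFL1) had 1055 ± 39.5 CPM and thymosin beta 4 (TMSB4X) 1560.3 ± 182 CPM. Vimentin (VIM), the intermediate filament protein of blood and connective tissue cells, had 14.6 ± 1.18 CPM, far under ACTG1 and ACTB.

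**Figure D3:**
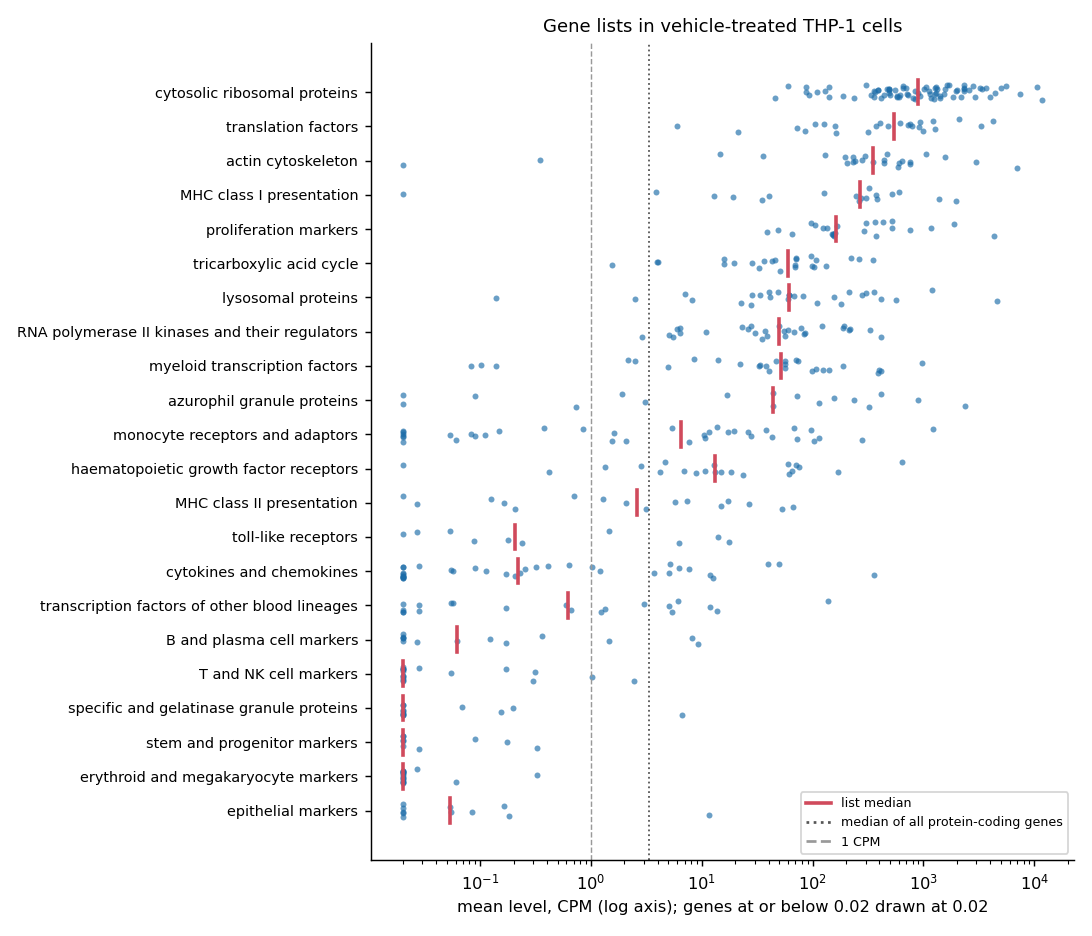
Each row is 1 gene list and each point 1 member, at its mean CPM over 3 libraries (log axis); red bars are list medians, the dotted line is the median of all protein-coding genes and the dashed line 1 CPM. Ribosomal protein, translation and actin lists sit highest, and the lists of other cell types lie mostly below 1 CPM.

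The labelled cell type was checked on 12 genes of monocytic and granulocytic precursors (MPO, ELANE, PRTN3, AZU1, CTSG, LYZ, CD33, FCER1G, TYROBP, ITGB2, SPI1 and CEBPA), chosen with earlier results of these data known. All were detected, against 57.7% of protein-coding genes, from MPO at 1.9 CPM to ITGB2 at 1221 CPM, but CD14, a marker of mature monocytes outside this set, was not. Several azurophil granule genes had high levels. Of their list, 13 of 17 members were detected, with a median of 44 CPM, against 57.7% and 3.32 CPM over all protein-coding genes. Serglycin (SRGN), the proteoglycan that packs granule proteins, had 2312, 2406 and 2450.3 CPM. Complement factor D (CFD), a serine protease, had 923, 860.4 and 887 CPM. Neutrophil elastase (ELANE) had 424, 379 and 441 CPM. Proteinase 3 (PRTN3) had 326, 303 and 344 CPM, under ELANE in every library. Azurocidin (AZU1), a relative without protease activity, had 164, 135 and 169.7 CPM. These last 4 genes are consecutive protein-coding genes on the plus strand, from AZU1 (chr19:825097-832018, GRCh38) through PRTN3 (chr19:840960-848175) and ELANE (chr19:851014-856247) to CFD (chr19:859643-863630). All 4 were lowest in replicate 2, and their order CFD, ELANE, PRTN3, AZU1 was the same in 3 of 3 libraries. ELANE stood over PRTN3 at ratios of 1.3, 1.25 and 1.28. The next genes outward were PLPPR3 at 291 ± 20.1 CPM, whose 3′ end faces PTBP1, and MED16 at 8.46 ± 1.86 CPM.

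Cathepsin G (CTSG, chr14:24573522-24576260), a granule protease from another locus, had 118, 109 and 114 CPM. The ribonuclease RNASE2 (eosinophil-derived neurotoxin) had 234 ± 11.6 CPM and its relative RNASE3 16.8 ± 1.52 CPM. Lysozyme (LYZ), which monocytes secrete in quantity, stood at 42.8, 45.6 and 42.2 CPM, below ELANE, PRTN3, AZU1 and CTSG in every library. Myeloperoxidase (MPO), the haem enzyme of the same granules, had only 1.6, 1.73 and 2.37 CPM. ELANE, PRTN3, CTSG and CFD were thus above 100 CPM, whereas the protease cathepsin C (CTSC) gave the median of the list and PRSS57 had 3.09 CPM. Defensins DEFA1 and DEFA3 had no count, DEFA4 0.73 ± 0.0625 CPM and the bactericidal protein BPI 3 counts. Granule proteins of later neutrophil stages were mostly unread. In the specific granule list 1 of 12 members was detected, haptoglobin (HP) at 6.68 ± 1.33 CPM, against 57.7% of protein-coding genes. No count was found for 8 of 12, lactoferrin (LTF) and lipocalin 2 (LCN2) among them, against 25.2% of protein-coding genes. Of eosinophil and mast cell granule genes, 1 of 8 was detected (PRG2, 1.63 ± 0.0893 CPM), again against 57.7%.

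Monocyte surface genes were detected in part. Of the receptors and adaptors listed, 22 of 36 were detected, 61.1% against 57.7% of all protein-coding genes. ITGB2, the beta subunit of leukocyte integrins, led at 1221 ± 170.1 CPM, while its partners ITGAL and ITGAM had 19.4 ± 0.49 and 13.6 ± 0.785 CPM. The receptor CCR2, which draws monocytes to CCL2, had 275, 281 and 289.8 CPM. The related receptor CCR1 had 96.1, 91.3 and 101 CPM, under CCR2 in 3 of 3 libraries. The signalling adaptor FCER1G had 114 ± 2.97 CPM and TYROBP, which overlaps HCST, 72.8 ± 3.21 CPM. CD33, a sialic acid lectin used to mark myeloid leukaemia, had 24.8, 29.2 and 24.5 CPM. The high-affinity IgG receptor FCGR1A had 38.2 ± 2.96 CPM, and FCGR3A, found on non-classical monocytes, had no count. CD14, the co-receptor for lipopolysaccharide, had 3 counts over the 3 libraries. No count was found for the haemoglobin scavenger receptor CD163, the mannose receptor MRC1, the co-stimulator CD80 or LY96, the partner of TLR4.

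Toll-like receptors, which sense microbial molecules, were detected in 4 of 10 members, 40% against 57.7% of protein-coding genes. TLR4 had 17.6, 18.6 and 16.2 CPM and TLR2 11.7, 17.4 and 12.9 CPM, followed by TLR6 at 6.26 ± 0.886 CPM and TLR1 at 1.44 ± 0.486 CPM. The endosomal receptors TLR3, TLR7, TLR8 and TLR9 were under 1 CPM. Signalling components downstream were at low to moderate levels, with 5.66 ± 0.314 CPM for MYD88 and 23.2 ± 2.05 CPM for TICAM1. The inflammasome and nucleic acid sensing list was detected in 18 of 22 members. Its adaptor PYCARD had 261, 296 and 269.6 CPM. The sensor NLRP3 had 29.2, 28.1 and 33.6 CPM and the protease CASP1 31.7, 32.8 and 33 CPM, both under PYCARD in every library, with ranges that overlap. The pore protein GSDMD had 60.4 ± 2.12 CPM and the DNA-sensing adaptor STING1 130.3 ± 2 CPM. The DNA sensor AIM2 had 1 count and CASP5 none.

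Cytokine genes were mostly quiet. Of cytokines and chemokines, 12 of 34 were detected, 35.3% against 57.7% of protein-coding genes. MIF, a constitutively made cytokine that overlaps an unnamed gene, had 361, 349 and 353 CPM. Lymphotoxin beta (LTB) had 49, 51.3 and 49.3 CPM and CCL5 39.8, 41.3 and 38.2 CPM. Tumour necrosis factor (TNF) had 5.59, 4.49 and 5.41 CPM, and the interleukin 1 antagonist IL1RN 12.6 ± 0.414 CPM, against 11 counts in all for IL1B. Products of activated monocytes such as IL6, IL10, IL12A, CXCL10 and IFNB1 had no count. The phagocyte NADPH oxidase, which makes superoxide, was detected in 7 of 8 members. Its membrane subunits CYBB and CYBA had 24 ± 1.61 and 32.6 ± 1.98 CPM and its cytosolic subunit NCF4 138 ± 4.29 CPM. NCF1, which has near-identical pseudogenes, had 10 counts.

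Growth factor receptors were detected in 19 of 21 members, against 57.7% of protein-coding genes, with a median of 13.1 CPM. The interleukin 6 receptor IL6R had 661, 621 and 631 CPM, whereas its signalling partner IL6ST had 12.9 ± 0.5 CPM. The receptors that guide myeloid differentiation were lower. CSF3R (for G-CSF) had 24.9, 19.5 and 25.5 CPM. KIT (for stem cell factor) had 14.3, 15.5 and 14.5 CPM and CSF1R (for M-CSF), which overlaps HMGXB3, 12.5, 13.3 and 13.6 CPM. FLT3, a receptor kinase often mutated in acute myeloid leukaemia, had 5.35, 7.65 and 7.7 CPM. KIT and CSF1R were close to each other, and both lay above FLT3 in 3 of 3 libraries.

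Of class I genes, 17 of 18 were detected with a median of 267 CPM, and of class II genes 10 of 16 with a median of 2.58 CPM. Over all protein-coding genes 57.7% were detected with a median of 3.32 CPM, so class II lay near that background and class I above it. The class I light chain B2M had 2057, 1712 and 2100.0 CPM and the heavy chains HLA-B and HLA-C 522 ± 9.19 and 273 ± 4.12 CPM. Reads of such similar genes may be split between them. In class II, HLA-DRB1 had 54.1, 49.8 and 56.4 CPM and its partner HLA-DRA 4.07, 1.94 and 3.3 CPM. The invariant chain CD74 had 26.7 ± 2.66 CPM. CIITA, the regulator on which class II genes depend and which overlaps DEXI, had 2.06 ± 0.636 CPM. HLA-DPA1, HLA-DPB1 and HLA-DQA1 had 4, 5 and 1 counts in all. HLA genes vary in sequence between donors, so reads of this line's alleles may be lost to a reference genome, which was not tested.

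Myeloid transcription factors were detected in 25 of 28 members, against 57.7% of protein-coding genes, with a median of 51.5 CPM. CEBPA, the factor needed for granulocyte and monocyte precursors, had 974, 961 and 972 CPM and ranked 100 among protein-coding genes. MYB, which keeps blood progenitors dividing, had 404, 437 and 396 CPM and the repressor GFI1 391, 379.6 and 389 CPM. IRF8, a monocyte and dendritic cell factor, had 89.3, 108 and 98.1 CPM, and RUNX1, a factor of all blood progenitors, 68, 69 and 73.8 CPM. SPI1 (PU.1), the ETS factor of the myeloid lineage, had 36.1, 30.4 and 33.6 CPM and lay below each of these in every library. Other C/EBP genes were lower than CEBPA, CEBPD at 55.8 ± 1.46 CPM, CEBPB at 33 ± 3.42 CPM and CEBPE at 4.93 ± 1.23 CPM. Among factors of macrophage maturation, KLF4 had 2.48 ± 0.713 CPM, EGR2 5 counts and MAF 3 counts. Of transcription factors of other blood lineages, 9 of 20 were detected, 45% and under that background, TCF3 at 136 ± 12.8 CPM and GATA2 at 13.6 ± 0.81 CPM the highest. GATA1, KLF1 and FOXP3 had no count.

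Genes tied to KMT2A fusions were detected in 14 of 19 members, 73.7% against 57.7% of protein-coding genes. KMT2A itself had 24.3, 25.1 and 26 CPM and MLLT3 12, 11.1 and 9.73 CPM. The fusion transcript ends in MLLT3, so 3′ end reads of MLLT3 cannot be told apart between the fusion and the normal gene. The menin gene MEN1 had 128 ± 3.77 CPM and the histone H3K79 methyltransferase gene DOT1L 71.4 ± 1.6 CPM, both cofactors of KMT2A fusions. Among described targets, the kinase CDK6 had 488, 480.4 and 474 CPM and the homeobox gene PBX3 305, 306 and 309 CPM. MEIS1, the usual partner of HOXA9 in such leukaemias, had 5 counts, and MECOM had none.

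The HOX genes, which pattern the body axis and mark blood progenitors, were detected in the HOXA and HOXB clusters, with the highest levels in HOXA. In HOXA, 9 of 11 genes were detected, in HOXB 3 of 10, in HOXC 0 of 9 and in HOXD 0 of 9, against 57.7% of protein-coding genes. HOXA10 had 202, 184 and 206 CPM (chr7:27170591-27180261, overlapping HOXA10-AS) and HOXA9 67.9, 59.7 and 63.3 CPM (chr7:27162435-27175180). HOXA10 stood over HOXA9 at a ratio of 3.11 ± 0.137 in the 3 libraries. The next genes were HOXA13 with 20.9, 22.4 and 22.5 CPM and HOXA11 with 16.1, 23.2 and 18.2 CPM, whose libraries overlap. HOXA7 had 6.71 ± 0.459 CPM, HOXA4 4.04 ± 1.47 CPM, HOXA5 3.68 ± 0.898 CPM and HOXA6 1.46 ± 0.555 CPM. These 4 genes were thus each under 10 CPM, and HOXA3 had 8 counts and HOXA2 none. In HOXB, HOXB4, a regulator of stem cell renewal, had 15.7, 13.8 and 17 CPM, and HOXB7 and HOXB3 had 1.92 ± 0.353 and 1.02 ± 0.0923 CPM. HOXB3 lay at the threshold, under 1 CPM in replicate 2.

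Cell cycle genes were detected broadly. All 24 proliferation markers were detected with a median of 162 CPM, against 57.7% and 3.32 CPM over all protein-coding genes. The replication and mitosis genes MCM3, TOP2A, MKI67 and PLK1 had 516 ± 70.8, 291 ± 27.7, 152 ± 5.35 and 104 ± 1.57 CPM. Among D-type cyclins, which start the cycle, CCND3 had 331, 325 and 341 CPM, against 8.47, 8.98 and 7.19 CPM for CCND1 and 12 counts for CCND2. CCND3 over CCND1 came to 40.9 ± 5.79. Of their kinases, CDK6 stood over CDK4, which overlaps TSPAN31, at a ratio of 5.57 ± 0.336. The CDK inhibitors CDKN2C, CDKN1B and CDKN1A had 62.1 ± 0.911, 31.2 ± 3.68 and 13 ± 0.443 CPM. CDKN2A and CDKN2B, the inhibitors of CDK4 and CDK6 encoded on 9p21, had no count.

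Genes beside these 2 on 9p21 were unread too. Between HACD4 at 8.10 ± 1.36 CPM and ELAVL2 at 5.20 ± 0.583 CPM lie 22 protein-coding genes, from IFNB1 to DMRTA1 (GRCh38, chr9:21077105-22455740). Most of the 22 are type I interferon genes (IFNB1, IFNW1, IFNE and the IFNA genes). Of the 22, 21 had no count and MTAP, the methylthioadenosine phosphorylase, had 3 counts. The run was chosen around CDKN2A and CDKN2B and ends at the nearest detected genes, so its share of unread genes is set by that choice. A second run, chosen in the same way, surrounded KDM6A, a histone H3K27 demethylase gene on chrX:44873177-45112602, which had no count. Between DDX3X at 86.3 ± 3.12 CPM and KRBOX4 at 6.64 ± 0.467 CPM, 10 of 13 protein-coding genes had no count. All 13 together had 18 counts, of which 15 were in GPR82. DNA copy number was not measured, so loss of the DNA and silence of the genes cannot be told apart.

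The BCL2 family list, which holds both survival and death genes, was detected in 14 of 17 members, against 57.7% of protein-coding genes. MCL1, a short-lived anti-apoptotic protein, had 430.2, 455 and 433 CPM and BCL2 86.7, 86.5 and 89.2 CPM. MCL1 over BCL2 came to 5.03 ± 0.209. BCL2L1 (BCL-XL) had 12.3 ± 0.751 CPM and BCL2A1 0.709 ± 0.112 CPM. The effectors BAX and BAK1 had 80.0 ± 7.62 and 37 ± 1.17 CPM, and the BH3-only genes PMAIP1 (NOXA), BBC3 (PUMA) and BCL2L11 (BIM) 57.8 ± 2.73, 54.9 ± 4.77 and 14.2 ± 1.24 CPM.

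The kinases that act on RNA polymerase II, the targets of the inhibitors in the series, were all detected in vehicle. With their regulators 29 of 29 genes passed 1 CPM, against 57.7% of protein-coding genes. CDK12, a kinase of elongation, had 88, 83.4 and 83.8 CPM and its relative CDK13 28.8, 31.2 and 29.8 CPM. Their cyclin CCNK, which overlaps CCDC85C, had 48.9, 63.7 and 51.8 CPM. CDK9, the kinase of P-TEFb, had 6.07, 6.94 and 6 CPM, under its cyclins CCNT1 and CCNT2 at 34.9 ± 2.36 and 23.2 ± 0.216 CPM. CDK7, the kinase of TFIIH, had 5.03, 5.81 and 5.67 CPM with cyclin CCNH at 10.9 ± 0.704 CPM and the assembly factor MNAT1 at 5.95 ± 1.1 CPM. CDK9 lay above CDK7 in 3 of 3 libraries, but by less than 2 CPM. The genes of the 7SK complex, which holds P-TEFb inactive, had 36.9 ± 1.01 CPM (HEXIM1, overlapping an unnamed gene) and 59.6 ± 3.13 CPM (LARP7). The acetyl-lysine readers BRD3 and BRD2 had 413 ± 3.24 and 191 ± 22.7 CPM, and the polymerase subunit POLR2A 219 ± 6.04 CPM. Of chromatin regulators of leukaemia, 27 of 28 were detected, KDM6A being the exception. The deacetylase gene HDAC1 led them at 283 ± 19.5 CPM, and the DNA methyltransferase DNMT1 had 191 ± 22.8 CPM, the polycomb methyltransferase EZH2 96.7 ± 1.99 CPM and the demethylase TET2 28.1 ± 3.92 CPM.

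The steps of glycolysis differed in which isoforms were read. The trunk enzymes were detected in 12 of 19 members, 63.2% and near the 57.7% of protein-coding genes, which left at least 1 isoform detected at every step. GAPDH had 1495, 1378 and 1429 CPM, enolase 1 (ENO1) 1032, 1085 and 1044 CPM and aldolase A (ALDOA), overlapping an unnamed gene, 773, 735 and 789.6 CPM. The liver, testis and muscle forms PKLR, GAPDHS, PGK2 and PGAM2 had no count. Phosphofructokinase was shared between PFKL and PFKP, with 137 ± 1.27 and 133 ± 7.06 CPM and a ratio of 1.03 ± 0.0468, whereas the muscle form PFKM had 0.663 ± 0.134 CPM. Pyruvate kinase came from PKM at 152 ± 5.61 CPM. HK1 had 29.1, 32.6 and 28.2 CPM and HK2 18.5, 21.4 and 16.2 CPM, while HK3, a form of myeloid cells that overlaps UNC5A, had 0.897 ± 0.193 CPM.

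Among sugar transporters, SLC2A5 (GLUT5), known as a fructose carrier, had 65.8, 68.7 and 68.6 CPM, above the glucose carrier SLC2A1 (GLUT1) with 38.8, 44.9 and 38 CPM. Their ratio was 1.68 ± 0.139. SLC2A3, a high-affinity glucose carrier, had 3.91 ± 0.689 CPM. Lactate dehydrogenase was read more from LDHB, with 461, 496 and 465 CPM, than from LDHA, with 178, 201 and 199 CPM. GAPDH and LDHA have processed pseudogenes that may take some of their reads. The lactate exporter SLC16A3 (MCT4) had 313 ± 12.6 CPM and SLC16A1 (MCT1) 67 ± 7.33 CPM. All 24 genes of the tricarboxylic acid cycle list were detected with a median of 60.2 CPM, against 57.7% and 3.32 CPM over all protein-coding genes. They ran from pyruvate carboxylase (PC) at 1.55 CPM to the malate dehydrogenase gene MDH2 at 348 CPM.

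**Figure D4:**
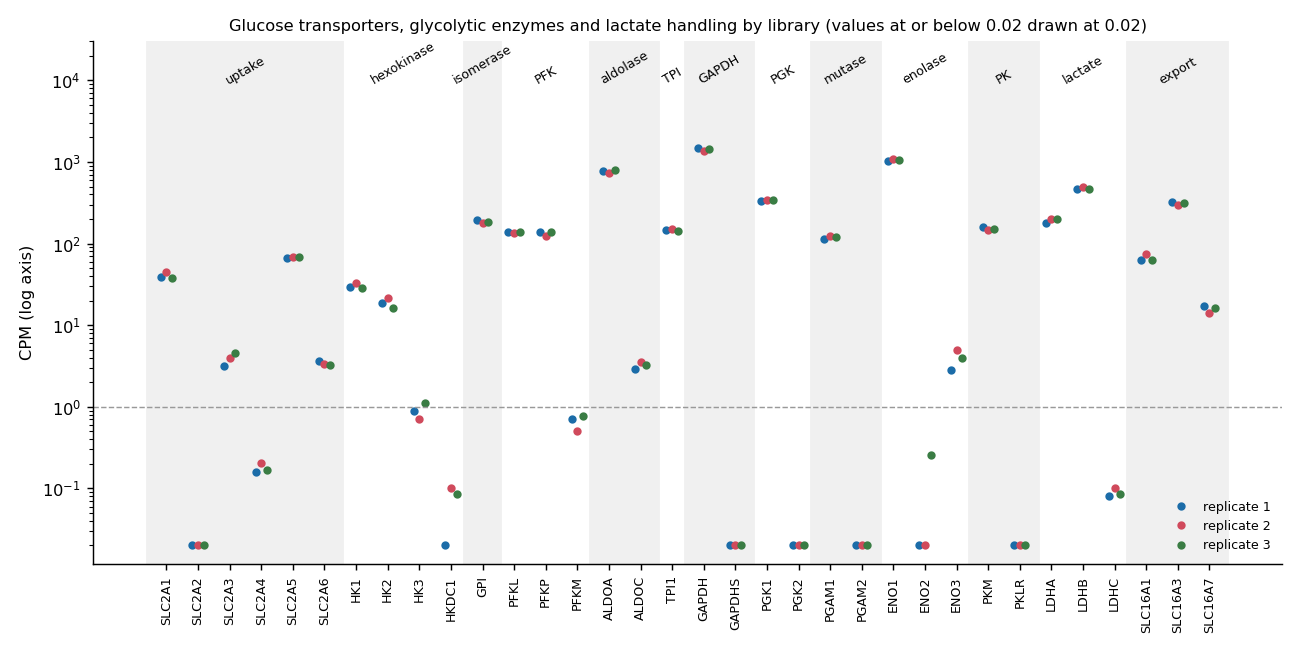
CPM (log axis) in the 3 DMSO libraries for glucose transporters, hexokinases, glycolytic enzymes, lactate dehydrogenases and monocarboxylate carriers, ordered along the pathway; the dashed line is 1 CPM and values at 0 are drawn at the foot. Each step from hexokinase to pyruvate kinase has a gene above 10 CPM in every library, and 5 genes lie at 0 in all 3.

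Most biosynthetic lists were detected nearly in full, against 57.7% of protein-coding genes. The fatty acid and cholesterol synthesis list had 31 of 32 members detected, among them the desaturase SCD with 405, 472 and 453 CPM and fatty acid synthase (FASN) with 368, 359 and 367 CPM. The elongase ELOVL6 was the member with no count. Of serine and one-carbon enzymes, 16 of 18 were detected, thymidylate synthase (TYMS) at 303 ± 25.2 CPM. The pentose phosphate list had 8 of 9 members detected, transketolase (TKT) at 450.4 ± 33.5 CPM among them. Gluconeogenesis and urea cycle genes were detected in 6 of 12 members, 50% and near the background. ASS1, which makes argininosuccinate, had 132, 129 and 135 CPM, while PCK1, G6PC1 and OTC had no count.

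Of iron handling genes, 12 of 15 were detected with a median of 16 CPM, and of antioxidant and thiol enzymes 20 of 24 with a median of 54.8 CPM, against 57.7% and 3.32 CPM over all protein-coding genes. The ferritin light chain FTL had 958, 994 and 1014 CPM. The heavy chain FTH1 had 345, 364 and 360.5 CPM, so that FTL over FTH1 came to 2.77 ± 0.0423, and both genes have processed pseudogenes. The transferrin receptor TFRC had 101 ± 8.21 CPM and the iron exporter SLC40A1 1.92 ± 0.508 CPM. Peroxiredoxin 1 (PRDX1) had 1308 ± 48.5 CPM, the glutathione transferase GSTP1 1157 ± 56.6 CPM and the glutathione peroxidase GPX1 1025 ± 22.5 CPM. Lysosomal genes were detected in 26 of 27 members, with CD63 at 1192 ± 15 CPM, prosaposin (PSAP) at 563 ± 42.9 CPM and cathepsin D (CTSD) at 278 ± 14.9 CPM. Legumain (LGMN) had 5 counts. In the list of S100, galectin and annexin genes, 15 of 17 were detected. S100A4, a calcium-binding protein of motile cells, had 600.4, 575 and 575 CPM. Of the pair that mature monocytes make in quantity, S100A9 had 20.6, 25.6 and 17.7 CPM and S100A8 3.03, 6.32 and 4.14 CPM, both under S100A4 in every library. S100A12 had no count.

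Genes that handle drugs gave a mixed picture. The nucleotide hydrolase SAMHD1, which degrades the active form of cytarabine, had 168, 157 and 161 CPM. The nucleoside carrier SLC29A1 had 75.4 ± 7.96 CPM and the activating kinase DCK 7.7 ± 1.78 CPM. The efflux pump ABCC1 had 4.35 ± 1.56 CPM, and ABCB1 and ABCG2 had no count.

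Markers of other cell types were mostly below 1 CPM. In bulk RNA, fewer cells of a type and less RNA per cell cannot be told apart. The erythroid and megakaryocyte list had 0 of 16 detected. No count was found for 13 of 16, against 25.2% of protein-coding genes, the globins HBB and HBA1 and the platelet factor PF4 included. The stem and progenitor list had 0 of 9 detected, with no count for CD34. Progenitor genes outside that list, such as MYB, RUNX1 and HOXA9, were detected (see above). T and NK cell markers were detected in 2 of 17 members, NCAM1 at 2.42 ± 0.383 CPM and NKG7 at 1.02 ± 0.413 CPM. The T cell receptor complex genes CD3E and CD3G had no count and CD3D 1. B and plasma cell markers were detected in 3 of 13 members, among them SDC1 at 8.08 ± 0.502 CPM and CD79B at 1.46 ± 0.333 CPM, whereas MS4A1 had no count. Shares for these lists lay between 0% and 23.1%, against 57.7% of protein-coding genes.

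Some genes of other cell types stood out within lists otherwise mostly below 1 CPM. Over all protein-coding genes, 57.7% were detected and 25.2% had no count. CHI3L1, a secreted chitinase-like protein of differentiated macrophages, had 523, 549.5 and 552 CPM and APOC1 55.3, 52 and 54.9 CPM, while 7 of 16 of that list, CD163, MRC1 and C1QB among them, had no count. PECAM1 (CD31), shared by endothelium and leukocytes, had 214, 230.3 and 218 CPM, the only detected member of 13 mesenchymal and endothelial markers, and VWF and KDR had no count. MUC1 was the only detected member of 11 epithelial markers, at 11.5 ± 2.1 CPM. Of dendritic cell markers 2 of 12 were detected, IL3RA and CD1D. PRAME, an antigen of germ cells and many leukaemias, had 142, 166 and 148 CPM in a list of 14 pluripotency and germline genes, of which SALL4 at 4.77 ± 0.877 CPM was the other detected. In the list of neuronal, hepatic and muscle markers, DES at 1.09 ± 0.0434 CPM was the only detected member of 16.

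Among the protein-coding genes of at least 10 CPM with the largest coefficients of variation were DEPDC5, RAB4B-EGLN2, C6orf226 and SEZ6L2. DEPDC5, a subunit of the GATOR1 complex, had 9.18, 15.8 and 9.39 CPM. RAB4B-EGLN2, a read-through of adjacent genes, had 9.9, 17.1 and 10.5 CPM. C6orf226 had 8.94, 15.1 and 10.3 CPM and SEZ6L2 11, 7.55 and 13.4 CPM. Replicate 2 was the highest library for the first 3 of these genes and the lowest for SEZ6L2.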

How the data were processed

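Whole-number counts of reads, without normalisation, were deposited by the authors for 295100 rows, each under a transcript identifier. Of these 256726 were human and 38374 Drosophila. Per the submitters' processing notes, reads were handled with bcl2fastq 2.17.1.14 and with Trim Galore 0.6.5, the build for human reads was hg38 and that for fly reads dm6, and version 3.32.1 of edgeR is named. How reads were aligned and counted, with which annotation and on which strand, is not given in the sources used here. GENCODE v29 (GRCh38) gave a gene to 251529 human rows, and the other 5197 were left out. Rows of a gene overlap, and their sum came to 3.31 to 3.34 times the counts of the row used, the one with the highest total. Where genes had identical counts in every library of the series, and at least 120 in the DMSO libraries, a single gene was kept, which removed 85. The 37 mitochondrial rows held 0 counts, so those genes are not reported.

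CPM were taken over 1 row per gene in Python 3.11.15 with pandas 2.3.3. Spread was estimated in R 4.3.3 with edgeR 4.0.16 (TMM, filterByExpr with a minimum count of 10, intercept only), which was tested on simulated data. The chi-square of the counts of 2 libraries was 1.91 to 4.96 per gene, more than sampling noise gives, so no library was taken for a copy. The 3′ end of a gene was called overlapping when another gene's last exon overlapped its last exon or came within 500 bases of it, on either strand. That other gene needed at least 10% of the gene's counts, and more than 3 counts. RefSeq promoter windows matched 77.2% of protein-coding genes, so they were not compared between classes of genes.

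One group is described, so no test between groups was made, and lists are given by counts and medians beside all protein-coding genes. Genes named were the 20 most abundant, the 3 highest members of each list, members with at most 3 counts, HOX genes, glycolytic isoforms, a preset list, and the 5 genes with the largest coefficient of variation; others, such as those singled out for replicate 2 or for their neighbours, were chosen after their values were seen. Members and lists were chosen with earlier results of these data known. Some genes that these rules name are not reported here. Alternatives were TMM or DESeq2 1.42.0 size factors, summed rows, the row with the highest total over 12 libraries, thresholds of 0.5 and 2 CPM, a filter on low counts, genes with identical counts kept, a pseudocount of 1 in place of 0.1 CPM before log2, and each library left out.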

Additional observations from a re-analysis of the deposited data

Results flagged for a closer look

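Signals appeared in rows that the description does not use. Drosophila rows held 3.14% ± 0.360 of all counts in the 3 DMSO libraries (3.27%, 3.42% and 2.73% in replicates 1, 2 and 3), the spike-in having been added at 5%. Human rows that the annotation did not name held 0.717% ± 0.00156 of human counts, and the largest of them held 0.0359%.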

How the results depend on the processing

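The number of protein-coding genes at 1 CPM, 11352 as reported, ran from 10612 at a threshold of 2 CPM to 11996 at 0.5 CPM, and was 10906 with rows summed and 10158 without genes that overlap another counted gene, a setting chosen after seeing the data. Most list counts stayed within 1.5 times the reported count. With rows summed, differentiated macrophage genes gave 3 detected, mesenchymal and endothelial markers 2, and neuronal, hepatic and muscle markers 0. At 0.5 CPM, mesenchymal and endothelial markers gave 2. At 2 CPM, the HOXB cluster gave 1, T and NK cell markers 1, eosinophil and mast cell genes 0, and neuronal, hepatic and muscle markers 0. With the filter on low counts first, T and NK cell markers gave 1. Leaving out each library in turn gave 1 to 2 for T and NK cell markers (1 without replicate 1), 1 to 2 for mesenchymal and endothelial markers (2 without replicate 3), and a biological coefficient of variation of 0.0351 to 0.0736, the lowest without replicate 2. The cause of these shifts was not tested. Summed rows also moved 42 of 50 named levels by more than their SD, and the share of the 10 most abundant genes to 12.05%; TMM and DESeq2 size factors moved none of the 50. With 3 libraries, leaving out 1 cannot move a mean by its SD, so that check was not read.

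No paired analysis was possible because 1 group is described. Depth limits genes near 1 CPM, where a library held about 10 counts, and a level also depends on which row stands for the gene.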
